A study of Mus musculus with 4 samples.

Results

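Dermal white adipose tissue (dWAT) is the fat layer that lies around the base of the hair follicles (HFs) in the skin. The 10 genes described here encode enzymes that modify, trim and crosslink collagen, and Pcolce, which encodes a protein that speeds the trimming. They were taken by name, by matching the gene identifiers to mouse symbols, and all 10 were found among the 22913 genes listed in each library. They comprise the prolyl 4-hydroxylase subunits P4ha1 and P4ha2, the lysyl hydroxylases Plod1 and Plod2, the procollagen proteases Bmp1 and Adamts2 with the enhancer Pcolce, and the lysyl oxidases Lox, Loxl1 and Loxl2. Gene expression in dWAT of C57BL/6 mice was measured by RNA sequencing in 4 groups, with 1 library per group. OTD (old) and YTD (young) were collected in telogen, the resting phase of the hair cycle, and OAD (old) and YAD (young) in anagen, the growth phase, which was induced by plucking the hair. The old mice were 18 months and the young mice 2 months old. Tissue of 20 mice per group was collected and each group is represented by 1 library, so the spread between mice is not visible. The age field of the sample labels reads 18 months for YTD and 2 months for OAD, against the title and description of both samples, so the titles were followed. With 1 library per group there is no spread between replicates, no test of any difference and no p-value.

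Collagen is built inside the cell and finished outside it. In the endoplasmic reticulum, prolyl 4-hydroxylases convert prolines to 4-hydroxyproline, which holds the triple helix together at body temperature, and lysyl hydroxylases convert lysines to hydroxylysine, which later takes part in crosslinks. After secretion the propeptides at both ends of procollagen are cut off, the molecules assemble into fibrils, and lysyl oxidases oxidise lysine and hydroxylysine side chains so that neighbouring molecules become covalently joined. In fat these fibrils surround the adipocytes and vessels, and fibroblasts and fat progenitors are the known main producers of the fibrillar collagens.

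The values are FPKM, fragments scaled to gene length and library depth. The lengths are coding lengths and it is not given which fragments were counted, so levels of different genes can be compared only roughly. A rough depth of 19100000 to 25300000 fragments per library was read from the lowest values of long genes, and it places between 86.8 (Lox in YAD) and 1970 (Pcolce in OTD) fragments behind each enzyme value. Intervals given below are 95% Clopper-Pearson intervals of the ratio of 2 libraries at that depth, and they cover counting error only, not the difference between mice. The libraries differed in composition. Of the FPKM total, mitochondrially encoded genes took 52.7% in OTD and 44.7% in YTD, but 18.3% in OAD and 14.4% in YAD. The summed level of 10 adipocyte markers was 8011 FPKM in OTD and 6736 in YTD against 2789 in OAD and 1960 in YAD, so the labelled tissue was present in each library. Skeletal muscle markers summed to 48789 FPKM in OTD and 75001 in YTD against 11879 in OAD and 8778 in YAD. The paper describes removal of the muscle layer under the fat during dissection. The muscle markers nevertheless summed to more than the adipocyte markers in each library, so muscle RNA was present in all of them. Hair shaft keratins summed to 23.1 FPKM in OTD and 60.1 in YTD, and to 6998 in OAD and 6723 in YAD.

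All 10 genes were expressed in each library, at FPKM values between 2.28 (Adamts2 in OAD) and 66.6 (Pcolce in OTD). Pcolce was the highest of the 10 in both telogen libraries and in YAD, and Bmp1 was the highest in OAD. Across the libraries as deposited 8 genes had both telogen values above both anagen values, and the other 2, Plod2 and Bmp1, had both anagen values above both telogen values. The lowest value lay in OAD for 7 of the 10 genes, and in YAD, OTD and YTD for Lox, Bmp1 and Plod2 respectively. The shares of all genes with these orders were not worked out, so no reading is placed on the counts. Of all genes 49.1% were lower in YAD than in YTD and 48.4% lower in OAD than in OTD. Pcolce held 39.5% of the summed level of the 10 genes in OTD and 38.9% in YTD, but 28.2% in YAD and 19.9% in OAD. Bmp1 took the reverse course, with 6.62% in OTD and 6.98% in YTD, then 23.5% in YAD and 28.8% in OAD, and Plod2 held 1.78% and 1.75% in these telogen libraries against 5.85% and 10.7%. The plot of the enzyme levels shows these orders.

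**Figure D1:**
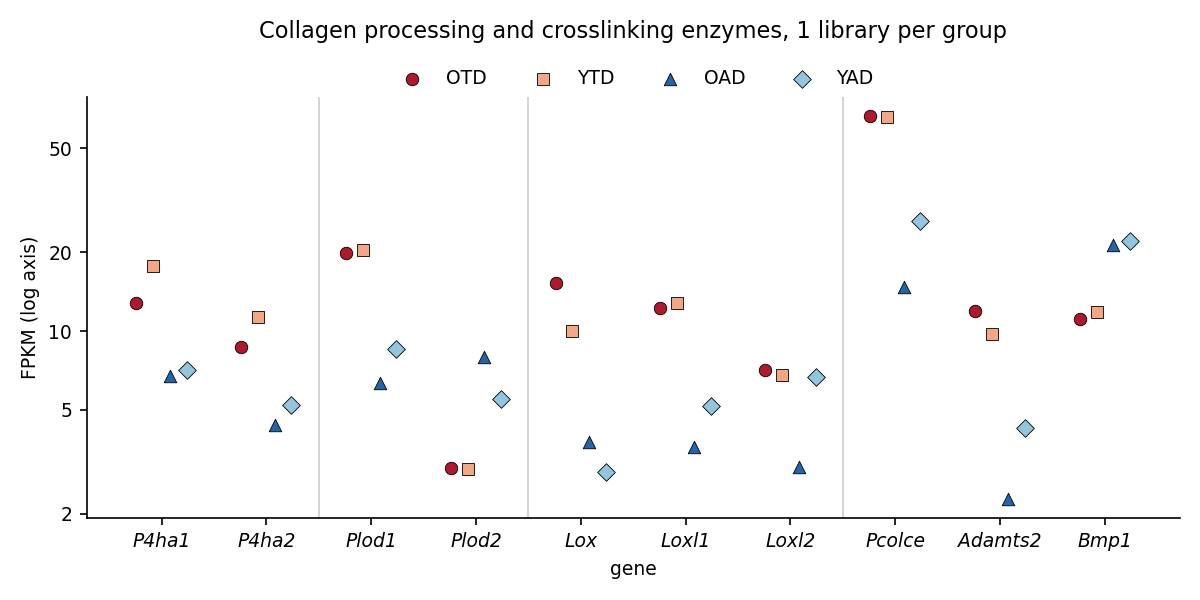
FPKM of the 10 collagen processing and crosslinking genes (log axis) in OTD, YTD, OAD and YAD, with 1 point per library and no error bars because each group is 1 library, and with vertical lines between the prolyl hydroxylases, lysyl hydroxylases, lysyl oxidases and procollagen proteases with Pcolce. With FPKM as deposited, the telogen points (circles and squares) lie above the anagen points (triangles and diamonds) for 8 genes, and below them for Plod2 and Bmp1. The share of all genes with either order was not worked out.

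P4ha1 and P4ha2 encode alternative catalytic alpha subunits of collagen prolyl 4-hydroxylase. P4ha1 (ENSMUSG00000019916, GRCm38 chromosome 10 from 59323296 to 59373304, plus strand) stood at 12.8 FPKM in OTD and 17.8 in YTD against 6.71 in OAD and 7.11 in YAD. P4ha2 (ENSMUSG00000018906, chromosome 11 from 54100095 to 54131662, plus strand) had 8.66 in OTD and 11.3 in YTD against 4.38 in OAD and 5.19 in YAD. Both genes therefore ran in the order YTD, OTD, YAD, OAD, and P4ha1 stayed at 1.37 to 1.57 times the level of P4ha2 in each library. In telogen P4ha1 was 1.39-fold (1.22 to 1.58) and P4ha2 1.30-fold (1.11 to 1.53) lower in OTD than in YTD. In anagen both genes were within counting error between the ages. The intervals of YAD over OAD, 0.891 to 1.25 for P4ha1 and 0.968 to 1.46 for P4ha2, include 1. They overlap those of telogen for both genes, so a smaller age difference in anagen is not shown. The beta subunit of the same enzyme, P4hb, which also works as protein disulfide isomerase, took another course with 95.9 FPKM in OTD and 104 in YTD against 142 in OAD and 146 in YAD.

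As the 2 alpha subunits moved together over the 4 libraries, their promoters are shown beside that of Adamts2, a gene with another order of levels. The sequences are from RefSeq on GRCm38.p6, cover the 250 bases before the start of transcription in RefSeq, and are printed 5′ to 3′ on the strand of the gene. Capitals mark the core of the hypoxia response element, searched as ACGTG or GCGTG on both strands, since hypoxia is a known inducer of prolyl 4-hydroxylase subunits. The P4ha1 window is chr10:59323046-59323295, the P4ha2 window is chr11:54100674-54100923 and the Adamts2 window is chr11:50601835-50602084, all on the plus strand. The RefSeq start of P4ha2 lies 829 bases downstream of the gene start listed with the FPKM values, so its window lies inside the listed gene, while those of P4ha1 and Adamts2 differ from the listed start by 0 and 1 bases.
P4ha1: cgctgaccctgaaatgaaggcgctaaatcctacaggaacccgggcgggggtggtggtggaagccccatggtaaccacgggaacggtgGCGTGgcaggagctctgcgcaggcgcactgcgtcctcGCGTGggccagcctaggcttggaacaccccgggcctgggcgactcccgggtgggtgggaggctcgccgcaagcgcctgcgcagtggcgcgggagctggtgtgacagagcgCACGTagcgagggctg
P4ha2: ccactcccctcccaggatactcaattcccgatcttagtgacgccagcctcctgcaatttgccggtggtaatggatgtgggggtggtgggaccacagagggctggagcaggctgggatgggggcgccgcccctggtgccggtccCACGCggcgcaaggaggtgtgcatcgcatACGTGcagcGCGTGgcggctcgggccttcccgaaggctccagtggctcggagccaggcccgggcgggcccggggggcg
Adamts2: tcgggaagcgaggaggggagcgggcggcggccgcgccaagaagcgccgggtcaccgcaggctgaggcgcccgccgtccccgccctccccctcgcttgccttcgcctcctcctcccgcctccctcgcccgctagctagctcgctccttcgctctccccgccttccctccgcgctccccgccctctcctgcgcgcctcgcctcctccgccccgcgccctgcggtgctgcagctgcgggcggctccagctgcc
The core was matched 3 times in the P4ha1 window, at 163, 126 and 16 bases before the start, and 3 times in the P4ha2 window, at 107, 78 and 69 bases before it. No match stood in the Adamts2 window. Of 32851 mouse promoters of the same length 38.6% held the core at least once and 6.58% held it 3 or more times. The GC content was 69.6% for P4ha1, 70.0% for P4ha2 and 78% for Adamts2 against a median of 52.4% over all promoters, and the GC box GGGCGG, searched on both strands, was matched 1, 2 and 5 times respectively. Of all promoters 32.7% held a GC box at least once, 8.47% 3 or more times and 1.93% 5 or more times. Promoters of 5 of the 10 genes were in the table, and Plod1 and Pcolce each held the hypoxia core once, Pcolce in a window before a RefSeq start 2380 bases downstream of the listed one. Plod1 ran in the same order of levels as P4ha1 and P4ha2, and Pcolce in the same order as Adamts2. A match describes the letters in the window and is not a measured binding site, and a link between matches and levels was not tested.

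Plod1 and Plod2 encode lysyl hydroxylases. The Plod2 product is the one known to hydroxylate the telopeptide lysines, which directs the type of crosslink that forms. Plod1 (ENSMUSG00000019055, chromosome 4 from 147909753 to 147936767, minus strand) stood at 19.8 FPKM in OTD and 20.4 in YTD against 6.35 in OAD and 8.54 in YAD. Plod2 (ENSMUSG00000032374, chromosome 9 from 92542223 to 92608428, plus strand) had 3.0 in OTD and 2.96 in YTD against 7.94 in OAD and 5.49 in YAD. The 2 genes ran in opposite order between the phases, so that within a library the ratio of Plod2 to Plod1, which does not move with the scaling between libraries, was 0.151 in OTD and 0.145 in YTD against 1.25 in OAD and 0.643 in YAD. Plod2 was thus above Plod1 in OAD and below it in the other 3 libraries. In telogen the ages were within counting error for both genes, with intervals of OTD over YTD of 0.882 to 1.07 for Plod1 and 0.793 to 1.30 for Plod2. In anagen Plod2 was 1.45-fold higher in OAD than in YAD (1.25 to 1.68) and Plod1 was 1.34-fold lower (1.16 to 1.55). Plod3, the remaining lysyl hydroxylase, had 21.3 FPKM in OTD and 21.7 in YTD against 13.6 in OAD and 13.9 in YAD, with intervals of old over young, 0.898 to 1.08 in telogen and 0.885 to 1.09 in anagen, that include 1. The antisense gene Gm38391 overlaps an exon of Plod2, and the strand of counting is not given in the sources used here.

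Bmp1 encodes the procollagen C-proteinase, and a longer form of the same gene, mammalian tolloid, was not told apart from it here. Pcolce binds the C-propeptide and enhances this cut, while Adamts2 removes the N-propeptide. Pcolce (ENSMUSG00000029718, chromosome 5 from 137605103 to 137613784, minus strand) stood at 66.6 FPKM in OTD and 65.9 in YTD against 14.8 in OAD and 26.5 in YAD. Adamts2 (ENSMUSG00000036545, chromosome 11 from 50602084 to 50807573, plus strand) had 11.9 in OTD and 9.70 in YTD against 2.28 in OAD and 4.26 in YAD. Bmp1 (ENSMUSG00000022098, chromosome 14 from 70474557 to 70520260, minus strand) had 11.2 in OTD and 11.8 in YTD against 21.4 in OAD and 22.1 in YAD. Pcolce and Adamts2 were thus higher in telogen than in anagen and lowest in OAD. Bmp1 was higher in both anagen libraries than in telogen and nearly level between the ages. In anagen Pcolce was 1.79-fold (1.61 to 1.99) and Adamts2 1.86-fold (1.57 to 2.21) lower in OAD than in YAD, while the interval of Bmp1, 0.902 to 1.04 for OAD over YAD, includes 1. In telogen Adamts2 was 1.23-fold higher in OTD (1.11 to 1.36), and the intervals of Pcolce, 0.949 to 1.08, and Bmp1, 0.847 to 1.05, include 1. The protease over its enhancer, Bmp1 to Pcolce, was 0.168 in OTD and 0.179 in YTD against 1.45 in OAD and 0.835 in YAD. The C-proteinase over the N-proteinase, Bmp1 to Adamts2, was 0.934 in OTD and 1.22 in YTD against 9.36 in OAD and 5.19 in YAD. Both ratios were higher in anagen and highest in OAD. Fbxo24 shares exon sequence with Pcolce on the same strand, so reads of these 2 genes could be split by the counting.

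Lox, Loxl1 and Loxl2 encode lysyl oxidases. Lox acts on collagen and elastin, Loxl1 is best known for elastic fibres and Loxl2 for collagen IV. Lox (ENSMUSG00000024529, chromosome 18 from 52516069 to 52529867, minus strand) stood at 15.2 FPKM in OTD and 9.97 in YTD against 3.78 in OAD and 2.88 in YAD. Loxl1 (ENSMUSG00000032334, chromosome 9 from 58287723 to 58313212, minus strand) had 12.2 in OTD and 12.8 in YTD against 3.59 in OAD and 5.15 in YAD. Loxl2 (ENSMUSG00000034205, chromosome 14 from 69609068 to 69695834, plus strand) had 7.12 in OTD and 6.81 in YTD against 3.02 in OAD and 6.68 in YAD. Lox was higher in the old library in both phases, Loxl1 was lower in the old library in both, and Loxl2 lay between 6.68 and 7.12 in 3 libraries and lower in OAD. Lox was 1.52-fold higher in OTD than in YTD (1.29 to 1.8), and in anagen the interval of OAD over YAD, 0.982 to 1.74, includes 1. Loxl1 was within counting error between the ages in telogen (OTD over YTD 0.834 to 1.09) and 1.44-fold lower in OAD than in YAD (1.17 to 1.76). Loxl2 was 2.21-fold lower in OAD than in YAD (1.85 to 2.66), the largest age difference of the 10 genes in either phase, and its interval in telogen, 0.892 to 1.23, includes 1. Within the libraries Lox to Loxl1 was 1.24 in OTD and 0.779 in YTD against 1.05 in OAD and 0.559 in YAD, and Loxl2 to Lox was 0.468, 0.683, 0.80 and 2.32 in the same order. The leading lysyl oxidase was therefore Lox in OTD, Loxl1 in YTD and Loxl2 in YAD, and in OAD the 3 genes lay close together. Antisense genes overlap exons of Lox and Loxl2.

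The age comparison in telogen asked how old and young dWAT differ while the HFs rest. Lox, which was 15.2 FPKM in OTD and 9.97 in YTD, and Adamts2 were higher in OTD beyond counting error, P4ha1 and P4ha2 were lower beyond it, and the other 6 genes were within it. Over 12982 genes 23.6% were higher and 34.9% lower beyond counting error. By sign alone 5 genes were higher and 5 lower as deposited, where 56.0% of those genes were lower, and Plod1, Loxl1 and Bmp1 turned from just below to just above their YTD level, at log2 changes of 0.17, 0.15 and 0.13, when mitochondrial genes were left out of the scaling (Plod1 to 0.02 also under median of ratios), while rescaling on adipocyte or fibroblast markers left 2 or 0 genes higher. A change was counted where log2(FPKM + 1) differed by at least 1, and 0 of the 10 enzymes did so in either direction. Of 12982 genes that could reach this size, 2.21% were higher and 2.57% lower by it, a split of 287 and 333 genes that became 622 and 252 without mitochondrial genes in the scaling. The median change of the 10 genes was -0.01 against -0.06 over those genes, and 0.05 to 0.06 above the median of all genes under the 5 planned scalings, which are FPKM as deposited, median of ratios, TPM, and TPM without mitochondrial genes or without mitochondrial, muscle, hair shaft and melanocyte genes. Each of these scalings multiplies a whole library by a common factor, so a value relative to all genes could hardly move between them. The summed level of the 10 enzymes was 169 FPKM in both libraries, whereas fibroblast markers summed to 1238 FPKM in OTD and 720 in YTD, with 10 of 11 higher in OTD, and macrophage markers to 555 and 283, with 6 of 7 higher. The part of these markers in the enzyme levels was not tested, and in tissue libraries of this kind fewer cells of a type and less RNA per cell cannot be told apart.

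In anagen the same question gave a different set of values. Plod2 was higher in OAD beyond counting error, Plod1, Loxl1, Loxl2, Pcolce and Adamts2 were lower beyond it, and P4ha1, P4ha2, Lox and Bmp1 were within it. Over 13068 genes 21.3% were higher and 18.7% lower beyond counting error. By sign 8 genes were lower and 2, Plod2 and Lox, higher in OAD, where 50.1% of those genes were lower. These signs were the same under the 5 planned scalings, while rescaling on adipocyte markers made 9 lower and rescaling on fibroblast markers made 5 lower and 5 higher. At the size of 1 on the log2 scale, 0 of the 10 enzymes were counted in either direction, and over 13068 genes 0.979% were higher and 0.612% lower by this size. That split of 128 higher and 80 lower genes became 99 and 165 when each library was scaled to the same total (TPM). Loxl2 came closest, at a log2 change of -0.93, followed by Pcolce at -0.80 and Adamts2 at -0.68. The median of the 10 genes was -0.29 while that of all genes was -0.0006, and relative to all genes it lay between -0.31 and -0.29 under the planned scalings, which could hardly move this relative value. Fibroblast markers summed to 199 FPKM in OAD and 252 in YAD, with 9 of 11 lower in OAD, and adipocyte markers to 2789 and 1960, with 10 of 10 higher, and their part in the enzyme levels was not tested. The plot of old over young shows how the intervals of both phases lie for each gene.

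**Figure D2:**
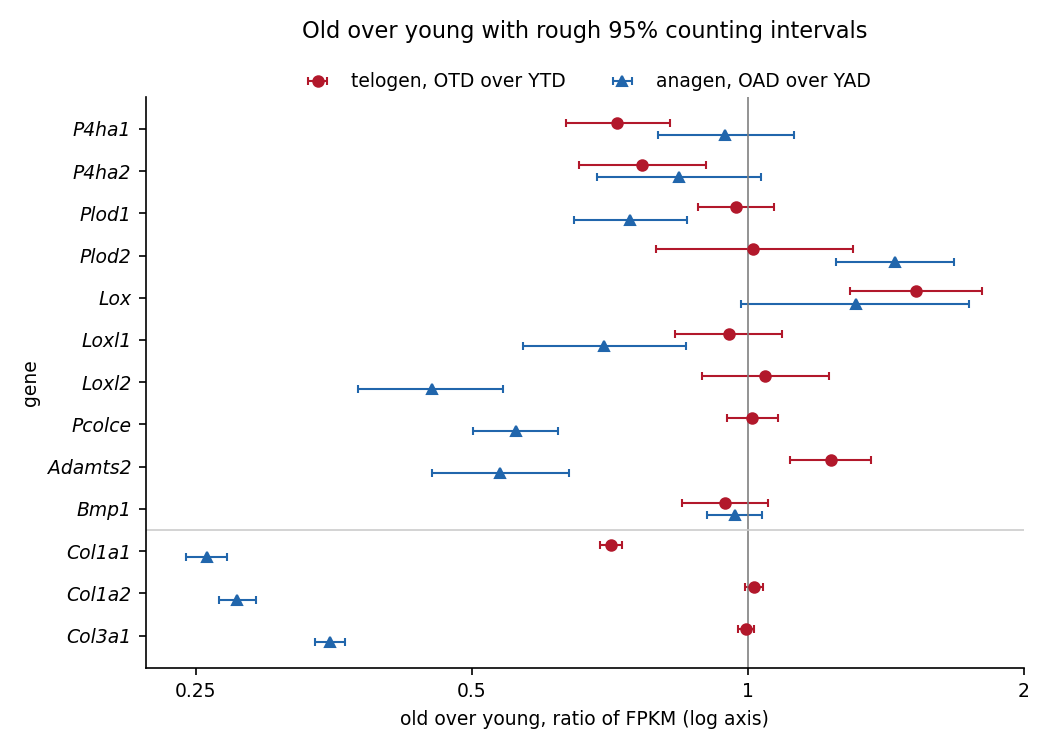
Ratio of FPKM in old over young dWAT (log axis) for the 10 enzymes and the collagen genes Col1a1, Col1a2 and Col3a1 in telogen (circles) and anagen (triangles), with bars for the rough 95% counting interval of 2 libraries, which holds no spread between mice. Loxl2, Pcolce and Adamts2 lie left of 1 in anagen with bars clear of it, Plod2 lies right of it, and the 3 collagens lie further left in anagen than any enzyme.

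The substrates were set beside the enzymes. Col1a1 and Col1a2, the chains of collagen I, had 94.5 and 177 FPKM in OTD, 133 and 175 in YTD, 16.5 and 21.7 in OAD, and 64.4 and 78.3 in YAD. Col3a1, the chain of collagen III, had 226 in OTD and 227 in YTD against 33.5 in OAD and 95.6 in YAD. All 3 were lowest in OAD by a wide margin. Their log2 changes in anagen were -1.90, -1.80 and -1.48, against -0.49, 0.02 and -0.01 in telogen. Col5a1 and Col5a2, chains of the collagen V that starts fibrils, changed by -0.96 and -0.76 in anagen. Over the 8 fibrillar collagens that reached an FPKM of 1 in either anagen library, 8 were lower in OAD, 3 of them past the size of 1, with a median of -0.86.

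The enzymes were lower in OAD by less than these collagens. Summed over Col1a1, Col1a2 and Col3a1 the level was 71.8 FPKM in OAD and 238 in YAD, 3.32-fold lower in OAD, and summed over the 10 enzymes it was 74.2 and 93.9, 1.26-fold lower. Per 100 FPKM of the 3 collagens the enzymes stood at 33.8 FPKM in OTD, 31.7 in YTD, 39.4 in YAD and 103 in OAD. These ratios are formed within a library and do not move with the scaling. OAD was the only library in which the enzymes together reached the level of the 3 collagens, and without Pcolce the values were 20.5, 19.4, 28.3 and 82.8 for OTD, YTD, YAD and OAD. A rise per collagen was general, since the collagens themselves were so much lower in OAD: 99.3% of 13068 genes were higher per collagen in OAD than in YAD and 97.1% by at least 2-fold, with a median of 3.32-fold. Prolyl hydroxylases per 100 FPKM of collagen were 5.16 FPKM in YAD and 15.4 in OAD, lysyl hydroxylases 5.89 and 19.9, lysyl oxidases 6.17 and 14.5, and the proteases with Pcolce 22.2 and 53.5. Of the 10 genes 10 were higher per collagen in OAD than in YAD, by 1.5-fold (Loxl2) to 4.80-fold (Plod2) with a median of 2.63-fold, and 7 by at least 2-fold. This median lay below that of all genes, so the rise is no result about the enzymes. Adamts2, Pcolce and Loxl2, the genes with the largest drop in anagen, had the smallest of these ratios, at 1.78, 1.85 and 1.5. In telogen the ratio of OTD to YTD ran from 0.774 (P4ha1) to 1.64 (Lox) with a median of 1.06, and 8 of 10 genes were above 1 where 52.4% of all genes were. The plot per collagen level shows OAD above the other libraries for each gene. Because all 10 ratios share 1 denominator per library, they are not independent of each other.

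**Figure D3:**
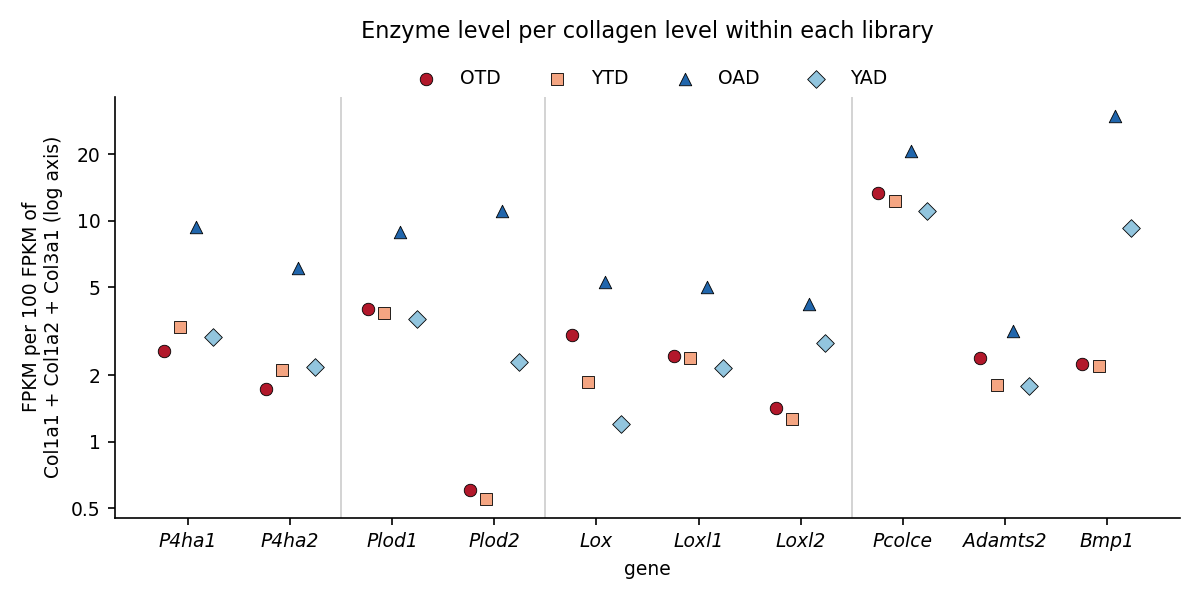
FPKM of each enzyme per 100 FPKM of Col1a1, Col1a2 and Col3a1 summed (log axis) in the same library, with 1 point per library and no error bars. The OAD triangle is the highest point for each of the 10 genes. For P4ha2, Plod2, Loxl2 and Bmp1, 4 of 10, the YAD diamond also lies above both telogen points. Of all genes 76.5% were higher per collagen in YAD than in YTD.

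Anagen was then compared with telogen at each age. In young mice 8 enzymes were lower in YAD than in YTD as deposited, 7 under TPM and without mitochondrial genes, and 1 on adipocyte or fibroblast markers, while Plod2 and Bmp1 were higher under each of these. As deposited 49.1% of all genes were lower in YAD. Beyond counting error 7 enzymes were lower, against 41.8% of all genes, and 2 higher, against 43.6%. Loxl2, at 6.68 FPKM in YAD and 6.81 in YTD, was level and turned to 0.72 on the log2 scale under TPM. P4ha1, Plod1, Lox, Loxl1, Pcolce and Adamts2 were lower by at least 1 on the log2 scale, 6 of 10, where 21.4% of 13738 genes were lower and 20.6% higher by this size, and 0 enzymes were higher by it. Lox was the furthest down, 3.46-fold lower in YAD (2.69 to 4.47). Bmp1 was 1.87-fold (1.71 to 2.05) and Plod2 1.85-fold (1.51 to 2.30) higher in YAD.

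In old mice again 8 enzymes were lower in OAD than in OTD and 2, Plod2 and Bmp1, higher, with these signs kept under the 5 planned scalings but not under the marker scalings, where 5 (adipocyte) and 0 (fibroblast) were lower. As deposited 48.4% of all genes were lower in OAD. Beyond counting error 8 enzymes were lower, against 40.5% of all genes, and 2 higher, against 43.8%. Plod1, Lox, Loxl1, Loxl2, Pcolce and Adamts2 were lower by at least 1, 6 of 10, against 19.9% of 13847 genes, and Plod2 was higher by it, 1 of 10, against 20.6%. Adamts2 was 5.23-fold (4.49 to 6.10), Pcolce 4.51-fold (4.10 to 4.97) and Lox 4.02-fold (3.27 to 5.0) lower in OAD than in OTD. Plod2 was 2.65-fold (2.18 to 3.22) and Bmp1 1.92-fold (1.75 to 2.10) higher. Plod1, Lox, Loxl1, Pcolce and Adamts2, 5 genes in all, were lower past the size at both ages as deposited. The share of all genes lower by it at both ages was not worked out, so no reading is placed on this overlap. Under TPM 0 of the 10 enzymes were lower past the size in YAD against YTD. The comparisons at the 2 ages use different libraries. The median of the 10 enzymes was -1.10 in young and -1.26 in old mice, against 0.03 and 0.05 over all genes.

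The size of the phase difference depended on what the libraries were scaled to. Scaling to TPM moved the median of all genes by 0.73 in young and 0.53 in old mice, and the split of higher and lower genes went from 2829 and 2938 to 5787 and 1274 in young mice and from 2854 and 2759 to 4886 and 1502 in old mice. Relative to the median of all genes the 10 enzymes lay between -1.17 and -1.10 in young and between -1.38 and -1.30 in old mice under the 5 planned scalings. Each scaling multiplies a whole library by a common factor, so this relative value was nearly fixed in advance and is no check on the scaling. Adipocyte markers summed to 3.44-fold less in YAD than in YTD and 2.87-fold less in OAD than in OTD, and fibroblast markers to 2.86-fold and 6.22-fold less. When the libraries were scaled to equal levels of these markers, the median of the enzymes turned to 0.50 (adipocyte) and 0.26 (fibroblast) in young mice and to 0.0613 and 1.02 in old mice. Per 100 FPKM of fibroblast markers the enzymes stood at 13.6 FPKM in OTD and 23.5 in YTD against 37.3 in OAD and 37.3 in YAD. Per 100 FPKM of adipocyte markers they stood at 2.10, 2.52, 2.66 and 4.79 in OTD, YTD, OAD and YAD. Per 100 FPKM of endothelial markers they stood at 42.5, 66.4, 74.4 and 129 in that order. The summed levels of the fibroblast markers and of the enzymes moved in one direction between phases. The summed level of the markers moved further than that of the enzymes, a sum in which Dcn alone is 599 of 1238 FPKM in OTD, while the median change of the markers, -1.09 in young and -1.34 in old mice, was close to that of the enzymes. Fibroblast markers were lower in anagen in 8 of 11 cases in young and 10 of 11 in old mice. Other lists fell too at both ages, adipocyte markers in 10 of 10 cases, endothelial in 6 of 6 and macrophage in 7 of 7. Their medians were -1.74, -1.68 and -1.20 in young and -1.40, -1.90 and -2.04 in old mice. The part of any of these lists in the enzyme levels was not tested. Epidermis markers summed to 54.9 FPKM in OTD and 85.0 in YTD against 1495 in OAD and 1059 in YAD, with 6 of 6 higher in anagen at both ages, in the same direction as Plod2 and Bmp1, and melanocyte markers to 12.1, 14.1, 442 and 726. Their part in the levels of Plod2 and Bmp1 was not tested.

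**Figure D4:**
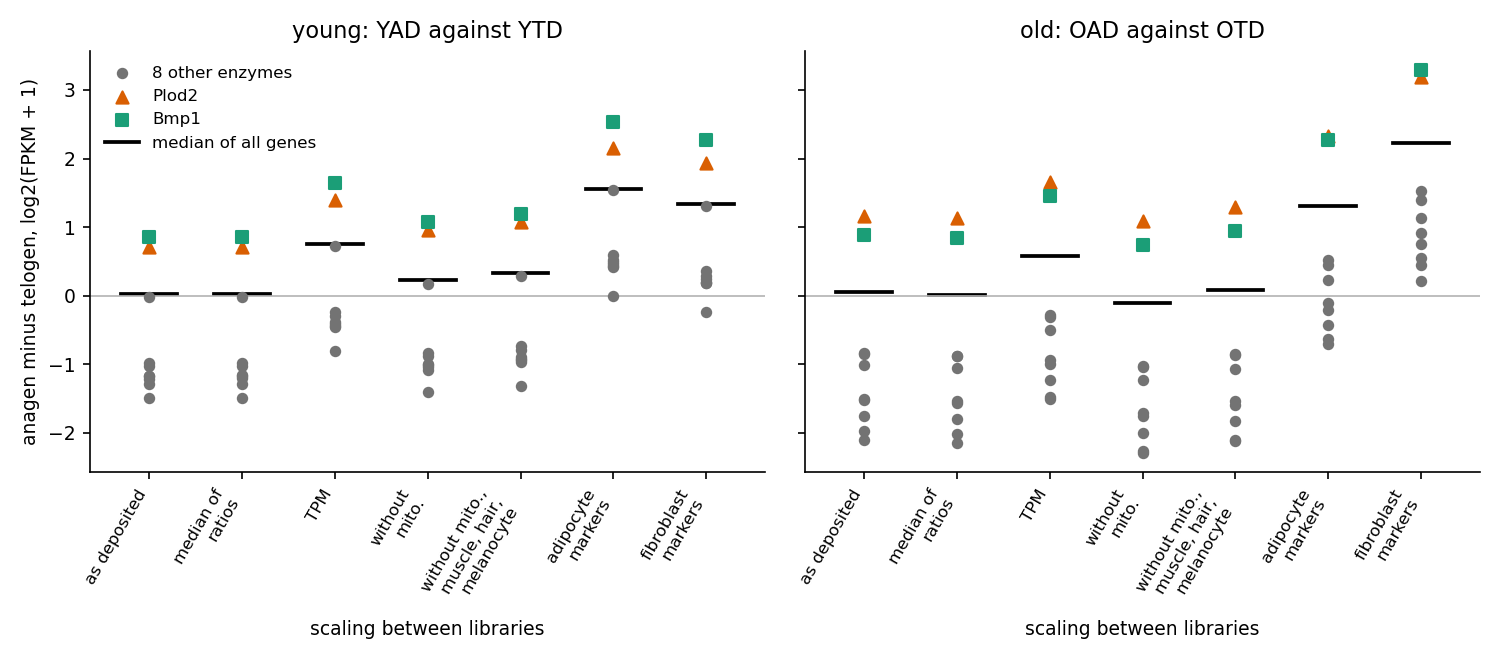
Difference of anagen minus telogen on the log2(FPKM + 1) scale for the 10 enzymes in young (left) and old (right) mice under 7 scalings between libraries, with 1 point per gene and a black bar at the median of all genes. Grey points lie below or at the bar under each scaling, Plod2 (triangle) and Bmp1 (square) lie above it, and the whole picture shifts upward with the TPM and marker scalings. A scaling multiplies a library by a common factor, so the place of a point relative to the bar could hardly change.

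**Figure D5:**
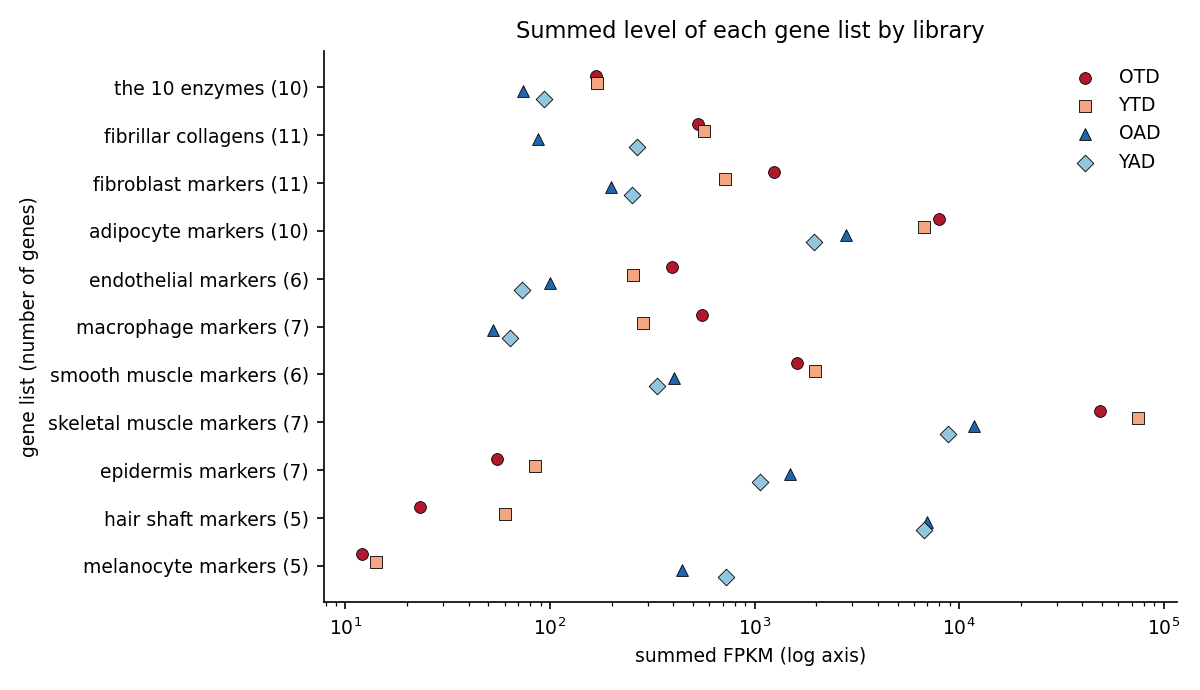
Summed FPKM (log axis) of the 10 enzymes, the fibrillar collagens and 9 lists of cell type markers in each library, with the number of genes in brackets. Hair shaft, epidermis and melanocyte lists are higher in anagen, the other lists are lower in anagen, and the enzyme sums run from 74.2 (OAD) to 169 FPKM (YTD).

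Paralogs of the enzymes were low in this tissue apart from Plod3 and Pcolce2. Loxl3 ran from 0.403 FPKM (OAD) to 1.87 (OTD), Loxl4 from 0.267 (OAD) to 1.02 (YTD), and Adamts14, which also removes N-propeptides, from 0.658 (OAD) to 1.17 (YTD). The tolloid gene Tll1 had 2.80 in OTD and 1.63 in YTD against 0.703 in OAD and 0.526 in YAD, and P4ha3, Adamts3 and Tll2 reached at most 1.15, 0.235 and 0.0496. Pcolce2, another enhancer of the C-proteinase, had 16.0 FPKM in OTD and 9.37 in YTD against 0.735 in OAD and 1.09 in YAD. It was 1.71-fold higher in OTD than in YTD (1.45 to 2.03) and 8.63-fold lower in YAD than in YTD (5.96 to 12.8). As deposited, both enhancers were thus lower in anagen than in telogen while Bmp1 was higher. Pcolce nevertheless stayed above Bmp1 in YAD, at 26.5 against 22.1 FPKM.

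The genes for other proteins that handle or modify collagen moved less with age than the fibrillar collagens in anagen. Of 18 genes on this list that reached an FPKM of 1 in an anagen library, 5 were higher and 13 lower in OAD, 0 of them past the size of 1, and their median was -0.09. Serpinh1, the collagen chaperone HSP47, had 75.5 FPKM in OTD and 84.2 in YTD against 56.3 in OAD and 65.8 in YAD. Ppib, a prolyl isomerase of the prolyl 3-hydroxylation complex, had 78.5, 58.3, 96.6 and 112 in the same order. Sparc, a collagen-binding protein, had 643, 823, 195 and 246. Serpinh1 was therefore 1.17-fold lower in OAD than in YAD (1.10 to 1.25) where Col1a1 was 3.89-fold lower (3.70 to 4.10). In telogen 9 of 19 were higher and 10 lower in OTD, with a median of -0.0079 against -0.0068 for the fibrillar collagens and a wider range, -1.39 to 0.62 against -0.49 to 0.26. Mia3, which helps load procollagen into transport vesicles, was the member past the size, at 36.1 FPKM in OTD and 96.1 in YTD. Between the phases 21.4% of all genes in young and 19.9% in old mice were lower in anagen past the size. On this list 4 of 18 in young and 6 of 19 in old mice were lower by it. Tgm2, a transglutaminase that crosslinks matrix proteins by another chemistry, was among them at both ages, with 122, 176, 34.7 and 28.3 FPKM in OTD, YTD, OAD and YAD. Creb3l1, a transcription factor of collagen-secreting cells, was higher past the size in old mice, with 2.15, 3.35, 5.53 and 3.23 FPKM in that order.

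Likeness between genes was measured as the distance between log2(FPKM + 1) profiles over the 4 libraries, each centred on its mean. Within the group P4ha2 lay nearest to the mean profile, at 0.267, and Bmp1 and Plod2 lay furthest, at 1.69 and 1.83. Of 10451 other genes that reached an FPKM of 5 in any library, the nearest to the mean profile were Zbtb14 at 0.0325, Mad2l2 at 0.0407, Oxsm at 0.0411, Cwf19l2 at 0.0508 and Tmco4 at 0.0542. Zbtb14, for example, had 9.56 FPKM in OTD and 9.80 in YTD against 4.45 in OAD and 5.53 in YAD. With 4 libraries many genes share such a profile, and likeness here is a description only.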

How the data were processed

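RNA of dWAT was sequenced from 4 groups of mice, with 1 library each. Per the labels, RNA was extracted with Trizol and had an integrity number above 7.5, and the submitters' processing notes name bcl2fastq, TopHat2 and GRCm38 without versions. The authors deposited FPKM per gene. The annotation, the counting tool and the strand of counting are not given in the sources used here. The listed lengths are multiples of 3 in 97.0% of cases and equal a GENCODE vM21 coding length for 10 of the 10 enzyme genes, so they are coding lengths. Of 22166 Ensembl identifiers 21750 were matched to a symbol.

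Deposited FPKM were used without a count test, because read counts were not used here. A change is the difference of log2(FPKM + 1), and it was counted from 1 in size. Percentages over all genes use those with an FPKM of at least 1 in either library compared. Depth was estimated from the worth of 1 fragment in features of at least 3000 bp, and 3 fragments were taken as the floor. Of the paralogs, P4ha3 in OAD and Tll2 in OTD, YTD and YAD lie under it. Alternatives were pseudocounts of 0.1 and 0.01, a 1.5-fold threshold, a filter on low values, and scalings by median of ratios, to TPM, without mitochondrial genes, and without mitochondrial, muscle, hair shaft and melanocyte genes. Scalings on adipocyte and fibroblast markers were chosen after seeing the data. The 10 genes and all lists were chosen with earlier results of these data known. Named genes are the 10 enzymes, their paralogs, the collagens Col1a1, Col1a2, Col3a1, Col5a1 and Col5a2, list members that are highest in mean FPKM or past the size of 1, and the 5 genes nearest in profile. The hair shaft keratin Krt85 was not matched, so 5 of 6 entered that list. A further list member is not reported here and was left out of the counts. The computation was tested on simulated data, with Python 3.11.15, numpy 2.4.6, pandas 2.3.3, scipy 1.17.1 and matplotlib 3.10.9.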

Additional observations from a re-analysis of the deposited data

Results flagged for a closer look

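Some genes moved one way with age in telogen and the other way in anagen, each beyond counting error. With 1 library per group the difference between phases was not tested. Adamts2, the N-proteinase, was the enzyme of this kind, with a log2 change of 0.27 in telogen and -0.68 in anagen, and thus -0.95 for anagen minus telogen. Loxl2 and Pcolce differed between the phases by a like amount, -0.99 and -0.82, but with telogen values within counting error. Of the substrates, Col5a2 gave -1.02 and the fibril-associated collagen gene Col14a1 -1.62 for anagen minus telogen. Of the fibril and breakdown genes, the proteoglycans Dcn and Lum gave -1.69 and -1.86, the collagen-degrading protease Ctsk -1.70 and the gelatinase Mmp2 -1.36. Of the chaperone list, Ppib gave -0.63, Creb3l1 1.09 and Tgm2 0.82. Ldha, a glycolytic hypoxia-responsive gene, gave 1.06. Under the 5 planned scalings Adamts2 kept both signs, and rescaling on fibroblast markers turned its telogen change to -0.40.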

How the results depend on the processing

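Of the recomputed comparison values 51 kept their place, 45 moved and 4 reversed, and of the values of single genes 236 kept their place, 107 moved and 17 reversed, where reversed means a change of sign in a value of at least 1 in size as reported. The comparison values that moved include enzyme levels per collagen for a single enzyme class or another set of collagens. Those are other quantities and had to differ. The filter on low values removed none of the 10 enzymes, so its values could not move. The counts are therefore no measure of how stable the results are. The reversals came with the marker scalings, which were chosen after seeing the data. Counting smaller values too, 10 of 160 single-gene values changed sign under the planned scalings (Plod1, Loxl1 and Bmp1 in OTD against YTD and Loxl2 in YAD against YTD) and 37 of 80 under the marker scalings. No paired analysis was possible because each group is 1 library, and no library could be left out. Enzymes past the size of 1 in OAD against YAD, 0 as reported, were 1 with a pseudocount of 0.1 or 0.01 and 1 without mitochondrial genes, alone or with muscle, hair shaft and melanocyte genes, 2 under TPM, and 3 at a 1.5-fold threshold. Under TPM the median was -0.34 in YAD against YTD and -0.72 in OAD against OTD. The 2 genes past the size in YAD against YTD under TPM were Plod2 and Bmp1, both higher, and 0 were lower by it. Without mitochondrial genes the median in OTD against YTD was 0.19. Without all 4 kinds of genes the median in YAD against YTD was -0.84 with 3 genes past the size, Lox lower and Plod2 and Bmp1 higher.

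On adipocyte markers the medians were -0.25 in OTD against YTD, -0.77 in OAD against YAD (3 genes past the size), 0.50 in YAD against YTD (3 genes) and 0.0613 in OAD against OTD (2 genes). In YAD against YTD the log2 change turned to 0.43 for P4ha1, 0.52 for Adamts2, 0.49 for Plod1, 0.42 for Loxl1 and 0.46 for Pcolce, and in OAD against OTD to 0.23 for Loxl2. On fibroblast markers the medians were -0.73 (1 gene past the size), 0.0001, 0.26 (3 genes) and 1.02 in the same order. In YAD against YTD the change turned to 0.18 for P4ha1, 0.29 for Adamts2, 0.24 for Plod1, 0.18 for Loxl1 and 0.20 for Pcolce, and in OAD against OTD to 0.21 for Adamts2, 0.91 for Plod1, 0.75 for Loxl1, 1.13 for Loxl2, 0.45 for Pcolce and 0.55 for Lox.

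Enzymes per 100 FPKM of collagen, in the order OTD, YTD, OAD, YAD, were 4.31, 5.43, 15.4 and 5.16 for prolyl hydroxylases, 4.58, 4.37, 19.9 and 5.89 for lysyl hydroxylases, 6.93, 5.53, 14.5 and 6.17 for lysyl oxidases, and 18.0, 16.3, 53.5 and 22.2 for proteases with Pcolce. Over Col1a1 and Col1a2 alone the 10 enzymes gave 62.0, 55.0, 194 and 65.8, and over the fibrillar collagens 31.95, 30.0, 84.7 and 35.4. OAD was highest in each of these. The fewest fragments stand behind Lox in YAD, 86.8 at the rough depth, and the spread between mice is unknown for each value.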

Other observations

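Genes that respond to TGF beta, a known inducer of matrix enzymes, were higher in OTD than in YTD in 8 of 8 cases, with a median log2 change of 0.47 and 3 past the size of 1. These were Ccn1 (82.9 FPKM in OTD and 20.7 in YTD), Thbs1 (12.7 and 3.59) and Ccn2 (28.4 and 10.2). Of all genes 44.0% were higher in OTD and 2.21% were higher past the size. The lists here were counted as deposited only. Rescaling moved the telogen median of all genes by -0.57 on fibroblast markers and by 0.19 without mitochondrial genes. In anagen 6 of 8 were higher in OAD, 0 past the size, where 49.9% of all genes were higher and 0.979% past the size. Genes of collagen breakdown and uptake were higher in OTD in 7 of 9 cases with a median of 0.75, led by the protease gene Ctsk (112 FPKM in OTD and 42.0 in YTD) and the inhibitor gene Timp1 (15.2 and 6.14). In anagen 3 of these 9 were higher and 6 lower in OAD, with Mmp2 at 9.71 in OAD and 14.9 in YAD. The list was lower in anagen than in telogen at both ages, 7 of 9 in young and 9 of 9 in old mice. Of all genes 49.1% in young and 48.4% in old mice were lower in anagen.

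Fibril and elastic fibre partners were higher in OTD in 10 of 12 cases, against 44.0% of all genes, with Dcn at 599 FPKM in OTD and 230 in YTD and Lum at 105 and 51.1. In OAD 10 of 12 were lower than in YAD, against 50.1% of all genes, and Mfap4, a microfibril-associated protein gene, was at 1.41 in OAD and 5.58 in YAD. Hypoxia-responsive genes were lower in anagen in 11 of 11 cases at both ages, against 49.1% of all genes in young and 48.4% in old mice. Bnip3 had 225 FPKM in OTD and 247 in YTD against 36.5 in OAD and 30.4 in YAD. Ldha had 1447 in OTD and 2733 in YTD against 486 in OAD and 441 in YAD. Skeletal muscle markers moved in the same direction, and their part in these levels was not tested. Among other collagens Col16a1 was higher in anagen, with 3.20 FPKM in OTD and 3.87 in YTD against 20.5 in OAD and 20.5 in YAD, and Col12a1 with 2.64, 3.13, 6.94 and 7.59, while Col14a1 had 11.4, 9.12, 2.25 and 7.14.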
